A study of Mus musculus with 6 samples.

Results

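Receptor tyrosine kinases span the cell membrane, bind a growth factor, ephrin, collagen or other ligand outside the cell and phosphorylate tyrosines inside it. Adaptors that dock on these tyrosines switch on RAS, RAF, MEK and ERK in turn, so the receptors stand upstream of the kinase that was inhibited here. In bone marrow stroma the receptors for PDGF are known as markers of mesenchymal cells, whereas KIT and FLT3 are known from blood progenitors and the VEGF and TIE receptors from endothelium.

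The receptors described here are the genes of a list of 45 receptor tyrosine kinases that have a probe set whose annotation gives that gene symbol and no other. Of these, 44 were matched among 19938 named genes, and Ephb2 was not analysed here. Insr and Ephb1 have 2 such probe sets each, and the one with the higher mean over the arrays was used. A further probe set shared by Erbb2 and Sympk was left out.

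The RNA was that of the MS5 line, stromal cells of mouse bone marrow, grown for 7 days in the presence of the MEK inhibitor PD184352 at 1 μM (MEKi) or of DMSO, its diluent. There was 1 diluent and 1 MEKi culture in each of 3 independent experiments, hence 3 arrays per condition and 6 in all. This is a single established line, so the experiments share their cell source. Values are log2 intensities from RMA, the authors' array normalisation, and were not filtered. Because probes differ in brightness, the value of one gene cannot be set against that of another as an amount of RNA, so MEKi and diluent are compared within a gene. The mean of a probe set is set only against the median of all probe sets, which describes how bright it is on the array and not how much RNA there was. Fewer cells with a transcript and less transcript per cell cannot be told apart in such bulk RNA.

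Of 12 stromal marker genes, 9 had a mean at or above the median of all probe sets, and the other 3 were Thy1, Nt5e and Lepr. None of 7 endothelial markers did, with means of 4.06 to 6.22. Of 6 haematopoietic markers Cd68 did, and of 5 epithelial markers Krt8 did. Cd68, a macrophage marker, had a log2 difference of −0.61 with MEKi (adjusted p = 0.249 from limma), a level 0.657 of that with diluent, which is past 1.5-fold with an unadjusted p of 0.00383. Its diluent cultures differed by 2.31 from lowest to highest. The other haematopoietic markers had log2 differences from −0.091 (Ptprc) to 0.069 (Spi1). Vcam1, a stromal adhesion molecule and the marker with the lowest adjusted p, had a log2 difference of −0.57 (adjusted p = 0.0942 from limma). It was lower in all 3 experiments and did not overlap between groups. Of the 12 stromal markers, 7 were above 0 and 5 below, with a median of 0.043. Cxcl12 (0.224), Eng (0.223) and Col6a1 (0.217) were higher in all 3 experiments, each at an unadjusted p under 0.05 from limma. The part of Cd68 or Vcam1 in the receptors' values was not tested. None of these marker genes passed the test described next.

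MEKi was compared with diluent with limma, which fits a linear model to each probe set and borrows its variance in part from the others. Experiment was a block in the model, and p-values were adjusted over all 28853 probe sets. No receptor transcript changed at an adjusted p under 0.05 after 7 days of MEKi. The lowest adjusted p of a receptor was 0.242, and 0 of 44 rose or fell, beside 0.104% of all probe sets that rose and 0.0555% that fell (0.159% together). At an unadjusted p under 0.05, 2 receptors were higher (Fgfr2 and Met) and 1 was lower (Epha2), beside 7.58% and 2.31% of all probe sets. An ordinary analysis of variance passed 0 of all 28853 probe sets, so its count of 0 receptors says nothing about receptors in particular. The median log2 difference was 0.026 for the receptors and 0.037 for all probe sets, and the differences ran from −0.23 to 0.37.

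The intervals give the size of change in array signal that these values leave room for. For the 23 receptors below the median of all probe sets, a bound on a dim signal need not be a bound on RNA. For all 44 receptors the 95% confidence interval lay within a 1.5-fold change in either direction, as it did for 96.8% of all probe sets. Standard errors ran from 0.072 to 0.112 on the log2 scale, with a median of 0.088. These intervals are for each gene alone and rest on the block: 41 of the 44 lay within 1.5-fold in the fit without it, and 27 in the ordinary analysis of variance, which estimates each spread from its own gene.

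**Figure D1:**
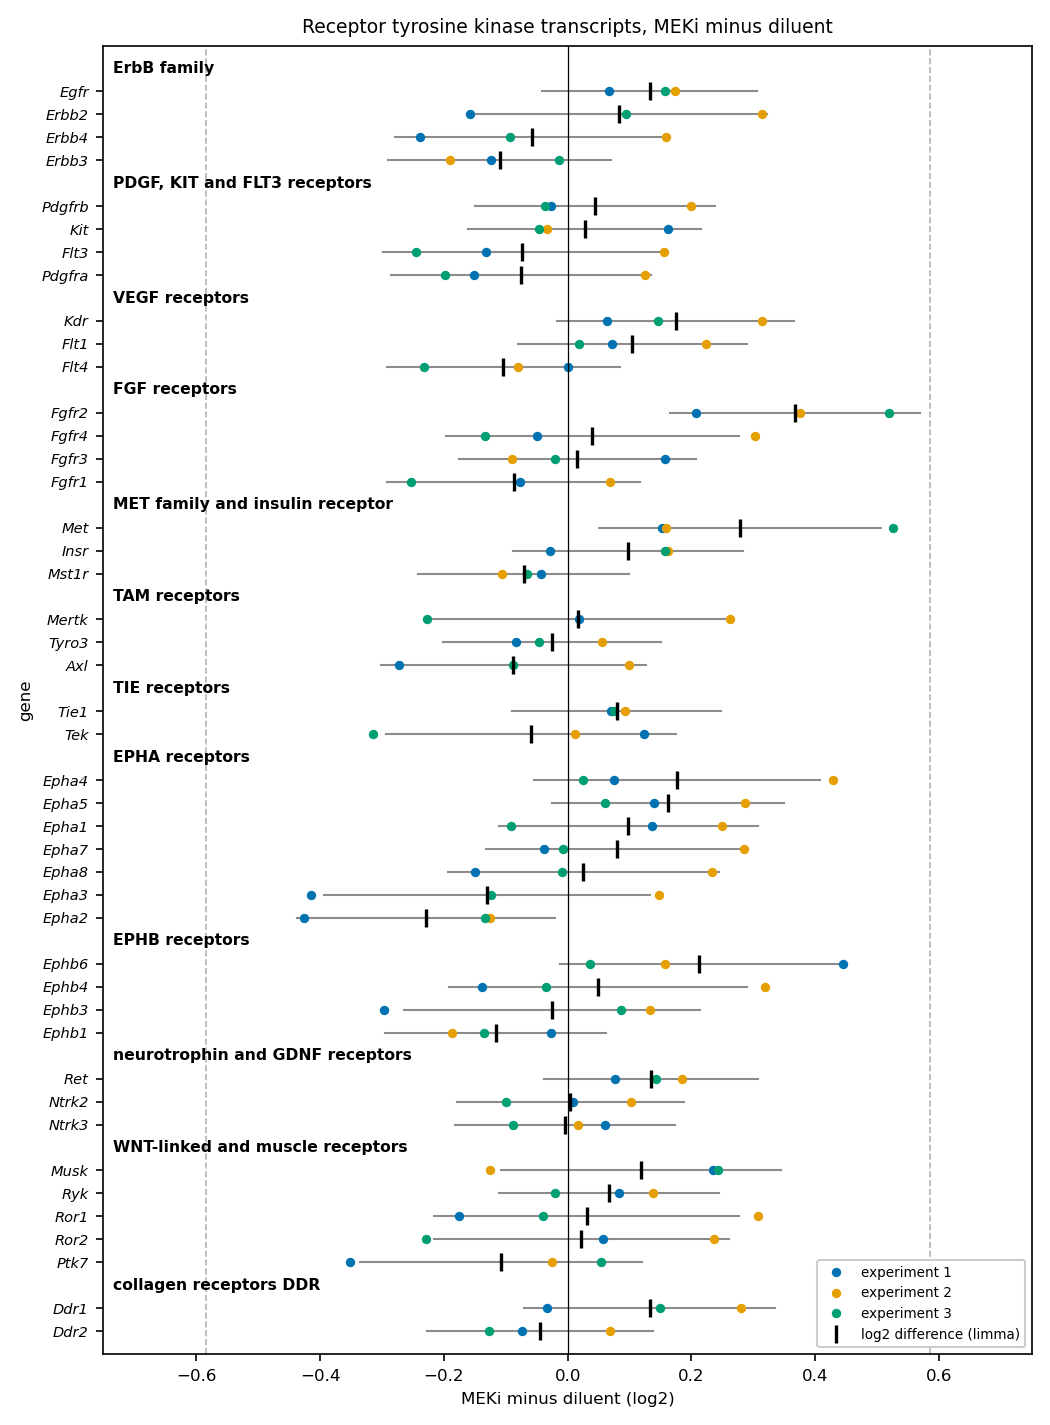
Log2 difference, MEKi minus diluent (x axis), of the 44 receptors by family (y axis); coloured points are the 3 experiments, black ticks the limma estimate, grey lines its 95% confidence interval and dashed lines a 1.5-fold change. Fgfr2 lies farthest right at 0.37 and Epha2 farthest left at −0.23, and no interval reaches a dashed line.

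The receptor with the largest difference was Fgfr2, a receptor for fibroblast growth factors. Its log2 values were 8.85, 9.01 and 8.48 in the diluent cultures of experiments 1, 2 and 3 and 9.05, 9.39 and 8.997 in the MEKi cultures. In every experiment the MEKi value exceeded the diluent value, by 0.21, 0.38 and 0.52, while the groups overlapped. The log2 difference was 0.37 (adjusted p = 0.242 from limma, standard error 0.086, 3 experiments), a level 1.29 times that with diluent (95% confidence interval 1.12 to 1.48).

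Met, the receptor for hepatocyte growth factor, had log2 values of 7.91, 8.63 and 8.26 with diluent and 8.07, 8.79 and 8.78 with MEKi. The differences were 0.15, 0.16 and 0.52, so experiment 3 gave most of the mean difference of 0.28 (standard error 0.097, adjusted p = 0.412 from limma). Without experiment 3 it was 0.16. The spread of Met between diluent cultures, 0.72 from lowest to highest, was larger than any of its differences.

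Epha2, an ephrin-A receptor, had log2 values of 6.64, 6.54 and 6.25 with diluent and 6.21, 6.41 and 6.12 with MEKi. It was lower in each experiment, by 0.43 in experiment 1 and by 0.13 in both others, and the groups overlapped. Its log2 difference was −0.23 (standard error 0.089, adjusted p = 0.466 from limma), which corresponds to 0.854 of the diluent level (95% confidence interval 0.739 to 0.986). Without experiment 1 the log2 difference was −0.13.

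**Figure D2:**
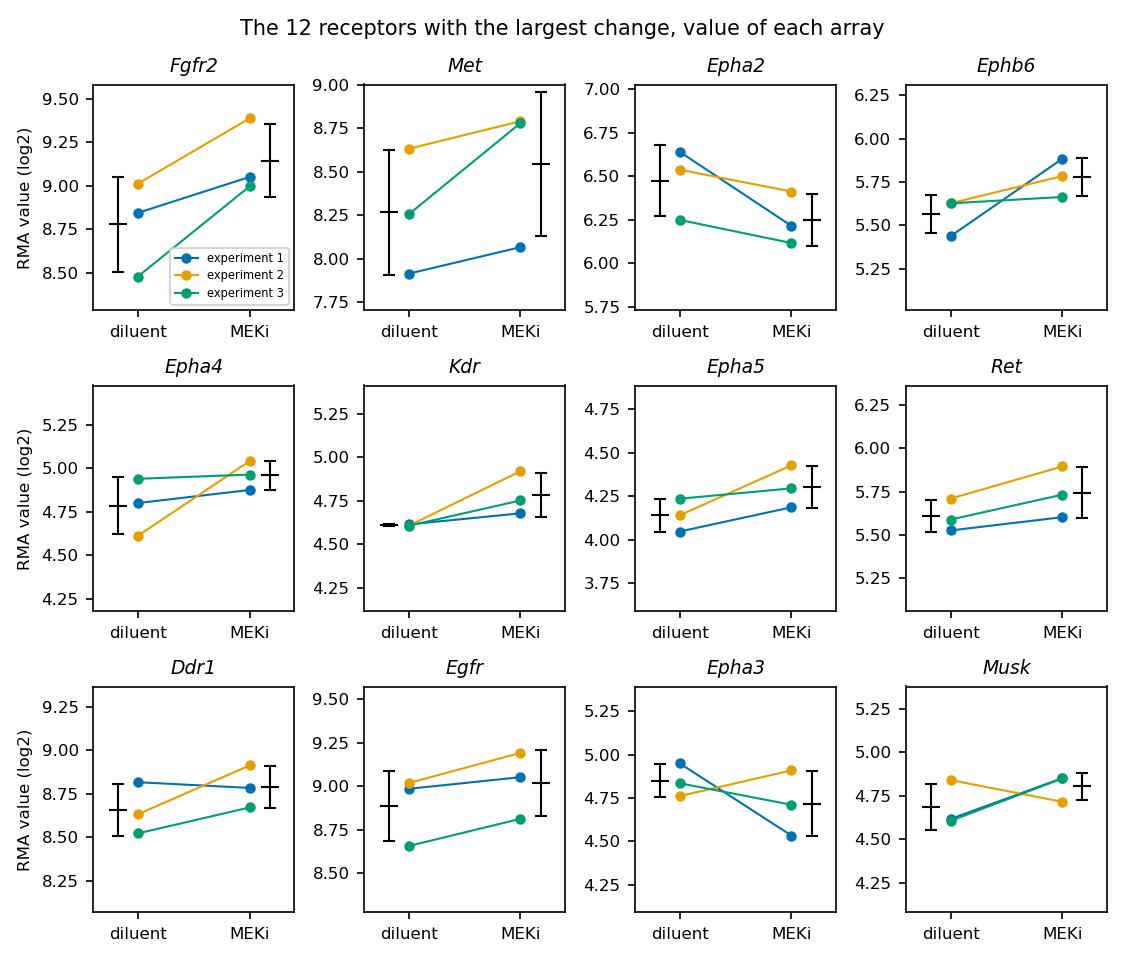
RMA values on the log2 scale (y axes, each spanning the same width) of the 12 receptors with the largest difference, in diluent and MEKi cultures (x axes); each line is an experiment, and black bars are the mean ± SD of 3 cultures. The 3 lines of Fgfr2 and of Met slope upward and those of Epha2 downward; only for Ephb6 and Kdr among the 12 do the groups not overlap.

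These 3 receptors are the ones with an unadjusted p under 0.05, and the 250 bases before their annotated transcription start are shown to let their promoters be compared. ERK is known to act on transcription through AP-1 and ETS factors and, by way of kinases downstream, through CREB. The windows are from RefSeq on GRCm38.p6, read 5′ to 3′ on the strand of the gene: Fgfr2 at chr7:130266809-130267058 (minus strand), Met at chr6:17463707-17463956 (plus strand) and Epha2 at chr4:141300971-141301220 (plus strand). Capitals mark an AP-1 motif (TGANTCA) or a cyclic AMP response element (TGACGTCA), both of which read the same on either strand; the ETS motif CCGGAAG was searched on both strands and is in none of the 3.
Fgfr2: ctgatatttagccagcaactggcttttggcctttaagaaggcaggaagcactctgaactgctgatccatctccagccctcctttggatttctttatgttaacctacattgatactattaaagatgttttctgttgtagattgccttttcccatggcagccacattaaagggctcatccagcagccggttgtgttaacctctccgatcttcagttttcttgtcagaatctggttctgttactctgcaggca
Met: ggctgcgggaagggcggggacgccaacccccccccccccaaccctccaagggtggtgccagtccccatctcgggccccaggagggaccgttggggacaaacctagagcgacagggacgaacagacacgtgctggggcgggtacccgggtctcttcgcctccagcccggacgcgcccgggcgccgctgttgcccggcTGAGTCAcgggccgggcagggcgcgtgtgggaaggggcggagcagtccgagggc
Epha2: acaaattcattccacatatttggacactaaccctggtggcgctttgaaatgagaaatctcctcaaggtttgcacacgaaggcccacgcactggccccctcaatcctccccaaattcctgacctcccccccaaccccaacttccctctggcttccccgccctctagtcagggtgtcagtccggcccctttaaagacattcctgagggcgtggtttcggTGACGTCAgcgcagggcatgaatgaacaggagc

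The Met window holds the AP-1 motif as TGAGTCA, 54 to 48 bases before the start, and the Epha2 window holds TGACGTCA, 33 to 26 bases before it. The Fgfr2 window holds none of the 3 motifs. G and C make up 74.0% of the Met window, 55.6% of that of Epha2 and 44.0% of that of Fgfr2. Among the 45 windows found for 38 of the receptors, 3 hold the AP-1 motif (Ddr1, Met and Ror2), or 6.67%, beside 6.75% of 32851 windows of the same length. The cyclic AMP response element is in 2 (Epha2 and Flt1), or 4.44% beside 1.55%, and the ETS motif is in 2 (Egfr and Ephb6), or 4.44% beside 6.91%. A match describes the letters of a window and is not evidence of binding.

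The ErbB family binds EGF-like ligands and neuregulins. Egfr, the EGF receptor, had log2 values of 8.99, 9.02 and 8.66 with diluent and 9.05, 9.19 and 8.81 with MEKi, and a log2 difference of 0.13 (standard error 0.074). It was higher in each experiment, by 0.067 to 0.17, while its diluent cultures differed by 0.36. Erbb2, which pairs with the other members, had a log2 difference of 0.083. Erbb3, which has little kinase activity of its own, had one of −0.11 and was lower in all 3 experiments. Erbb4 had one of −0.058.

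Of the other FGF receptors, Fgfr1 had a log2 difference of −0.087, Fgfr3 of 0.016 and Fgfr4 of 0.039, each with both signs among the experiments. Pdgfra and Pdgfrb, the PDGF receptors of mesenchymal cells, had differences of −0.075 and 0.045, and both were positive in experiment 2 alone. Kit, the receptor for stem cell factor, and Flt3 had log2 differences of 0.027 and −0.074.

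In the RefSeq gene order Pdgfra, Kit and Kdr follow each other with no other coding gene between them, and Flt3 and Flt1 have 1 gene, Pan3, between them. The neighbours did not share a sign across experiments: Kdr was higher in each experiment, and Pdgfra and Kit were not.

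Of the VEGF receptors of endothelium, Kdr had log2 values of 4.61 in each diluent culture and 4.68, 4.92 and 4.75 with MEKi. The groups did not overlap, and its log2 difference was 0.17 (standard error 0.081, adjusted p = 0.548 from limma). Flt1 had values of 5.501, 5.521 and 5.540 with diluent and 5.572, 5.745 and 5.558 with MEKi, which did not overlap either, and a difference of 0.10. Flt4 had one of −0.10. Both TIE receptors, which bind or modulate angiopoietin signals, were close to 0, Tie1 at 0.079 and Tek at −0.060. All 5 of these endothelial receptors had a mean below the median of all probe sets, as did the 7 endothelial markers.

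The groups did not overlap for 3 receptors that were higher with MEKi (Kdr, Flt1 and Ephb6) and for 1 that was lower (Ephb1), beside 5.69% and 2.17% of all probe sets. All 4 lay below the median of all probe sets, where 23 of the 44 receptors lie. Ephb6, an ephrin receptor without kinase activity, had log2 values of 5.44, 5.63 and 5.63 with diluent and 5.88, 5.78 and 5.66 with MEKi. Its differences were 0.44, 0.16 and 0.037, a mean of 0.21 (standard error 0.096, adjusted p = 0.537 from limma), and 0.097 without experiment 1. Ephb1 had values of 4.848, 5.028 and 4.960 with diluent and 4.820, 4.841 and 4.825 with MEKi, a log2 difference of −0.12, and its second probe set one of −0.0034. Ephb3 and Ephb4 had differences of −0.025 and 0.049.

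The EPHA receptors bind ephrin-A ligands on neighbouring cells. Epha4 had log2 values of 4.80, 4.61 and 4.94 with diluent and 4.88, 5.04 and 4.96 with MEKi, a log2 difference of 0.18. Experiment 2 had a difference of 0.43, and without it the mean was 0.050. Epha5 had values of 4.05, 4.14 and 4.24 with diluent and 4.19, 4.43 and 4.30 with MEKi, a log2 difference of 0.16. Both were higher in each experiment, with overlapping groups. Epha3 had values of 4.95, 4.76 and 4.84 with diluent and 4.53, 4.91 and 4.71 with MEKi. Its log2 difference of −0.13 was the mean of negative values in experiments 1 and 3 and a positive one in experiment 2. The values of Epha1, Epha7 and Epha8 were 0.098, 0.080 and 0.025.

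Receptors of other ligands were also close to their diluent values. Insr, the insulin receptor, had a log2 difference of 0.097, and 0.013 on its second probe set, and Mst1r, the receptor for macrophage-stimulating protein, had one of −0.071. The TAM receptors, which recognise Gas6 and protein S, had differences of −0.088 for Axl, −0.025 for Tyro3 and 0.017 for Mertk. Of the collagen receptors, Ddr1 had log2 values of 8.82, 8.63 and 8.52 with diluent and 8.78, 8.91 and 8.67 with MEKi, a difference of 0.13 that was negative in experiment 1, and Ddr2 had a difference of −0.045.

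Ret, the receptor for GDNF family ligands, had log2 values of 5.53, 5.71 and 5.59 with diluent and 5.60, 5.89 and 5.73 with MEKi. It was higher in each experiment, by 0.076 to 0.18, and its log2 difference was 0.13 (standard error 0.073). The neurotrophin receptors Ntrk2 and Ntrk3 had the smallest differences of the 44, 0.0038 and −0.0043. Musk, the receptor of the neuromuscular junction, had log2 values of 4.62, 4.84 and 4.61 with diluent and 4.85, 4.72 and 4.85 with MEKi, a difference of 0.12 that was negative in experiment 2. The WNT-linked receptors Ror1, Ror2 and Ryk had differences of 0.031, 0.022 and 0.067, and Ptk7 one of −0.11.

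Across the 44 receptors, 10 were higher in all 3 experiments, 4 were lower in all 3 and 30 had both signs, beside 23.8% higher and 7.98% lower among all probe sets. The 10 were Egfr, Flt1, Kdr, Fgfr2, Met, Tie1, Epha4, Epha5, Ephb6 and Ret, and the 4 were Erbb3, Mst1r, Epha2 and Ephb1. The median difference of the receptors was −0.027, 0.16 and −0.036 in experiments 1, 2 and 3, and that of all probe sets −0.0031, 0.10 and 0.014. In experiment 2, 35 of the 44 receptors were above 0, against 21 in experiment 1 and 16 in experiment 3. Of all 28853 probe sets, 21633 were above 0 in experiment 2, 14154 in experiment 1 and 15446 in experiment 3. The MEKi array of experiment 2 also had the highest median over all probe sets, 6.38 beside 6.29 to 6.32 in the other 5. With each array centred on its median, the median log2 difference of the receptors was −0.0060, and 7 receptors changed sign. The cause of the higher array median was not tested.

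For 40 of the 44 receptors the 3 diluent cultures differed by more than MEKi and diluent did on average, as they did for 87.2% of all probe sets. The 4 exceptions were Kdr, Flt1, Flt3 and Ephb6. Such a range includes the differences between experiments, which the block takes out of the comparison. It therefore does not measure the error of the MEKi minus diluent difference. The widest ranges over diluent cultures were those of Ephb3 (0.74), Met (0.72), Epha7 (0.71) and Fgfr2 (0.53), all lying at or above the median of all probe sets. The log2 values of Ephb3 with diluent were 8.96, 8.60 and 8.23 in experiments 1, 2 and 3, and those with MEKi were 8.67, 8.74 and 8.31.

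**Figure D3:**
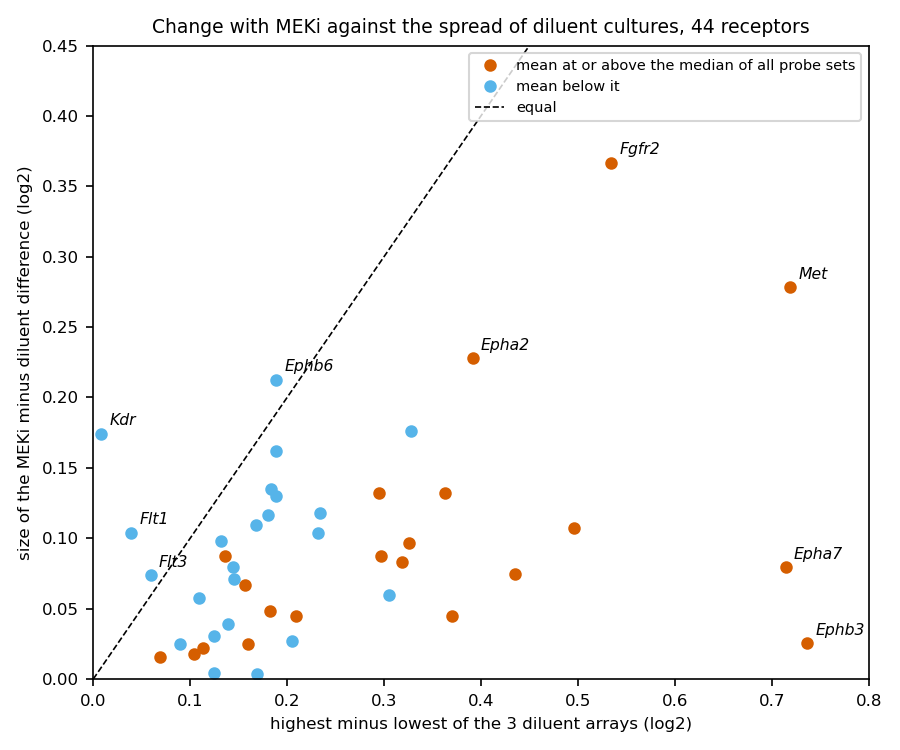
Size of the MEKi minus diluent difference (y axis, log2) against the range of the 3 diluent arrays (x axis, log2), 1 point per receptor, coloured by the mean relative to the median of all probe sets. Of 44 points, 40 lie right of the dashed line of equality. Kdr, Flt1, Flt3 and Ephb6 lie left of it. The range includes differences between experiments, which the block takes out of the comparison.

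The ligands and partners of these receptors were read by lists of genes. Of 64 ligands, 0 passed at an adjusted p under 0.05 from limma, and the median log2 difference was 0.0083. At an unadjusted p under 0.05, 8 were higher and 2 lower, beside 7.58% and 2.31% of all probe sets. Igf1, a ligand of the IGF-1 receptor, had log2 values of 10.13, 10.34 and 9.96 with diluent and 10.64, 10.82 and 10.55 with MEKi, and the groups did not overlap. Its difference was 0.53 (standard error 0.073, adjusted p = 0.0783 from limma). It passed when only probe sets naming 1 gene were tested (adjusted p = 0.038) or with an intensity trend and robust prior (0.0107). In the other fits that were run it did not pass.

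Vegfa, the main ligand of Kdr, had log2 values of 9.99, 9.38 and 10.74 with diluent and 9.01, 9.26 and 10.32 with MEKi. Its differences of −0.98, −0.12 and −0.42 gave a mean of −0.51 (standard error 0.151, adjusted p = 0.353 from limma), and its diluent cultures differed by more than that. Nrg1, a neuregulin that binds Erbb3 and Erbb4, had values of 7.01, 6.99 and 6.75 with diluent and 6.39, 6.57 and 6.39 with MEKi. Its groups did not overlap, and its log2 difference was −0.47 (standard error 0.083, adjusted p = 0.161 from limma). Gas6, a ligand of Axl, Tyro3 and Mertk, had values of 12.33, 11.94 and 11.34 with diluent and 12.55, 12.37 and 11.999 with MEKi, higher in each experiment, with a difference of 0.44 (adjusted p = 0.224 from limma).

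Beside the receptors with the largest differences, and picked once their values were known, 2 ligands are given here. Fgf7, which binds an isoform of Fgfr2, had a log2 difference of 0.25 (adjusted p = 0.368 from limma) and Hgf, the ligand of Met, one of 0.024. The other FGF ligands measured had differences from −0.167 (Fgf21) to 0.196 (Fgf17).

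Of 32 adaptors and docking proteins, which pass the signal from the receptor to RAS and other pathways, 0 passed, and the median was 0.038. At an unadjusted p under 0.05, 4 were higher and 3 lower, beside the same 7.58% and 2.31% of all probe sets. Irs1, the docking protein of the insulin and IGF-1 receptors, had log2 values of 10.70, 10.57 and 10.24 with diluent and 11.16, 10.91 and 10.84 with MEKi, and the groups did not overlap. Its difference was 0.47 (standard error 0.082, adjusted p = 0.156 from limma), and that of its second probe set was also 0.47. With an intensity trend and robust prior Irs1 passed (adjusted p = 0.0245), and in the other fits that were run it did not. Plcg2, a phospholipase C, had a difference of −0.43 that varied between experiments only from −0.40 to −0.45 (adjusted p = 0.133 from limma). Grb14, an inhibitor that binds the insulin receptor, had one of 0.41 (0.183) and Dok1 one of −0.31 (0.469).

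Of 24 negative regulators, 0 passed, and the median was −0.073. At an unadjusted p under 0.05, 0 were higher and 5 lower, again beside 7.58% and 2.31% of all probe sets. The 5 were Spred1, Spred2, Spred3, Spry2 and Lrig1. The 4 with the largest differences were Spred2 (−0.43), Spred1 (−0.37) and Spry4 (−0.36), which restrain the RAS-ERK pathway, and Lrig1 (−0.27), which lowers ErbB receptors. Spred1, Spred2 and Lrig1 were lower in all 3 experiments with groups that did not overlap, with adjusted p-values of 0.284, 0.24 and 0.428 from limma. The second probe set of Spred2 had a log2 difference of −0.45 (adjusted p = 0.156 from limma). Groups did not overlap for 5 of the 24 regulators, all lower, beside 2.17% of all probe sets that were lower. Of the 32 adaptors and docking proteins, 5 were higher and 1 lower without overlap, beside 5.69% of all probe sets that were higher. Of the 64 ligands 3 were higher and 3 lower in this way, and of the 10 co-receptors 0. Spry4 had differences of −0.33, −0.91 and 0.16 in experiments 1, 2 and 3 (adjusted p = 0.575 from limma). Its diluent cultures differed by 2.17 on the log2 scale. None of 10 co-receptors passed, with 0 at an unadjusted p under 0.05. Gfra3 had a log2 difference of −0.13, Ngfr of 0.10, Nrp1 of 0.070 and Nrp2 of −0.057.

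**Figure D4:**
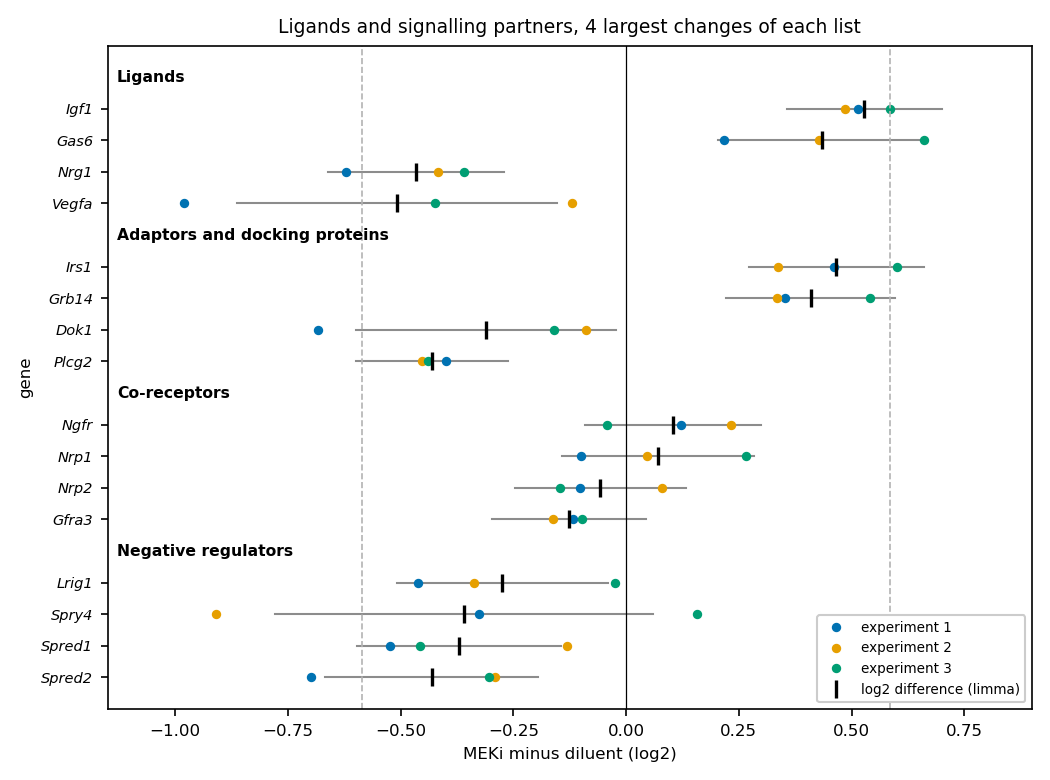
Log2 difference, MEKi minus diluent (x axis), of the 4 genes with the largest difference in each of 4 lists of receptor ligands and partners (y axis); coloured points are the 3 experiments, black ticks the limma estimate, grey lines its 95% confidence interval and dashed lines a 1.5-fold change. Igf1 lies farthest right at 0.53 and Vegfa farthest left at −0.51.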

How the data were processed

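RNA of 6 cultures was hybridised to Affymetrix mouse Gene 1.0 ST arrays. The authors normalised the intensities with RMA in Bioconductor and used Partek, no versions being stated, and the deposited values are log2 RMA values of 28853 probe sets. They run from about 2.25 to 14.07. No genome build is named, so coordinates are given only for the RefSeq promoter windows. Probe sets were named by the platform annotation: 21789 name 1 gene, 1621 several, and 5443 have no symbol listed. The gene numbers of the 44 receptors carry the same symbol in RefSeq.

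The comparison used limma 3.58.1 in R 4.3.3 (lmFit, eBayes, Benjamini-Hochberg over all probe sets, threshold 0.05), with the experiment as a fixed block, 2 residual degrees of freedom and 5.17 from the prior. The labels and the study's methods pair the arrays by experiment. Deviations from the group means correlated by 0.81, 0.59 and 0.62 within experiments and by −0.61 to 0.21 between them. The procedure was tested on simulated data. The receptors, lists and naming rule (values per array for the 12 receptors with the largest difference, and up to 4 genes per list) were chosen with earlier results of these data known. Values per array of Flt1, Ephb1 and Ephb3 were added after their values were seen. Cultures are labelled only by experiment, and their number limits the precision. Figures used matplotlib 3.10.9.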

Additional observations from a re-analysis of the deposited data

How the results depend on the processing

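No receptor passed under any of the alternatives run: no replicate block (count of receptors past the threshold 0), a random block, a further quantile normalisation, centring each array on its median, brighter probe sets only (21 receptors), probe sets that name 1 gene, a prior with trend and robust fit, weights for arrays, each experiment left out in turn, all probe sets of a gene averaged, an unadjusted p of at most 0.05 with 1.5-fold, and an ordinary analysis of variance. The lowest adjusted p of a receptor was 0.147, for Fgfr2 with the trend. Without the replicate block the lowest was 0.9995. The median of the receptors ran from −0.050 without experiment 2 to 0.066 without experiment 3. The sign held in every alternative for 23 receptors and changed in some for 21, the largest of which was Epha3 (−0.13, and 0.012 without experiment 1); the other 11 of the 12 with the largest difference kept theirs. The median of the receptors was −0.011 and 9 signs changed with the quantile normalisation, and it was −0.0060 with 7 changed after centring. Among the lists, 1 ligand (Igf1) passed with probe sets naming 1 gene and with the trend, and 1 adaptor (Irs1) with the trend; no other list count differed from 0, and the cause was not tested. Over all probe sets the count past the threshold was 46, and it was 0 without the block, with the random block, after centring, without experiment 2 and by the analysis of variance, 14 without experiment 1, 15 with the quantile normalisation, 25 of the 14427 brighter probe sets, 115 with the trend and 155 by the unadjusted p with 1.5-fold. Without experiment 1 or 2, 42 of the 44 intervals lay within 1.5-fold, and 44 without experiment 3.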

Other observations

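Of 12 measured receptor tyrosine kinases outside the list, none passed at an adjusted p under 0.05 from limma and none had an unadjusted p under 0.05. Igf1r, the receptor for Igf1, had a log2 difference of −0.13 (adjusted p = 0.734 from limma), and experiments 1, 2 and 3 gave −0.25, 0.14 and −0.28. Csf1r, the receptor for macrophage colony-stimulating factor, had one of −0.084. These 2 were picked for their known roles once values had been seen.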
